A study of Mus musculus with 24 samples.

Results

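A set of 10 genes that mark maturation of dendritic cells was followed in mouse bone-marrow-derived dendritic cells with and without Cre-driven deletion of Arpc4, which encodes a component of the Arp2/3 complex that nucleates branched actin. The genes were the chemokine receptor Ccr7, the costimulatory molecules Cd80, Cd86 and Cd40, the surface marker Cd83, the actin-bundling protein Fscn1, the inhibitory ligands Cd274 (PD-L1) and Pdcd1lg2 (PD-L2), the transcription factor Relb and the chemokine Ccl22. They were taken by symbol from a fixed list, and 10 of the 55487 genes in the table belong to it. All 10 passed the filter on low counts.

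The cultures were grown from marrow of mice of both sexes, 8 to 10 weeks old, in medium with GM-CSF, were replated on days 4 and 7, and were harvested on days 7, 8, 9 and 10 as cells in suspension, with adherent cells discarded. The labels treat these cells as immature dendritic cells, over 90% of them positive for CD11c by flow cytometry. All 8 groups carried floxed Arpc4 alleles on both chromosomes. Control cells (WT, genotype ARPC4 Flox/Flox CD11c-Cre -/-) lacked the recombinase, and knockout cells (KO, ARPC4 Flox/Flox CD11c-Cre +/-) carried it under CD11c, so deletion was limited to cells that express, or had expressed, CD11c. Each genotype had 3 mice, numbered 63, 65 and 66 (WT) and 64, 67 and 68 (KO), and each mouse was sampled on all 4 days, which gave 24 libraries. The series asks how differentiation of these cells in culture compares between the genotypes.

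A dendritic cell that meets a microbial or inflammatory signal stops sampling its surroundings, moves to a draining lymph node and presents antigen there. CCR7 is the receptor that guides this movement along CCL19 and CCL21. CD80 and CD86 engage CD28 on T cells, CD40 receives the CD40 ligand signal from helper T cells, and PD-L1 and PD-L2 engage the inhibitory receptor PD-1. Fascin, the product of Fscn1, bundles actin filaments in the long processes of mature cells, RelB is the NF-kB subunit of the alternative pathway, and CCL22 attracts T cells that bear CCR4. Some dendritic cells pass through this programme in culture without an added microbial signal.

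RefSeq promoter windows were available for 5 of the 10 members (Cd80, Fscn1, Cd274, Pdcd1lg2 and Ccl22). The 250 bases before the annotated start are given for 3 of them, because below Fscn1 follows Ccr7 from library to library most closely, Cd274 runs opposite to it, and Pdcd1lg2 is the gene that lies beside Cd274 on chromosome 19. The build is GRCm38.p6 and all 3 are on the forward strand, at chr5:142960105-142960354 for Fscn1, chr19:29367188-29367437 for Cd274 and chr19:29410669-29410918 for Pdcd1lg2. Capitals mark the motif matches described after the sequences.
Fscn1: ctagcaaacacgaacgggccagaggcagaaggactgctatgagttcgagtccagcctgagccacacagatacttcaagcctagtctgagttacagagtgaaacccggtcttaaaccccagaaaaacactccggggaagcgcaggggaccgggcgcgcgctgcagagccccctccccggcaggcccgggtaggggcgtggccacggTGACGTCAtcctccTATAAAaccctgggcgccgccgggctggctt
Cd274: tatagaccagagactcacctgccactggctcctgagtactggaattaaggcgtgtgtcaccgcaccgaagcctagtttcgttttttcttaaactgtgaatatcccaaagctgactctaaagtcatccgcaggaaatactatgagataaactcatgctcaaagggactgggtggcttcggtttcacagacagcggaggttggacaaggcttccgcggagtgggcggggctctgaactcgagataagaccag
Pdcd1lg2: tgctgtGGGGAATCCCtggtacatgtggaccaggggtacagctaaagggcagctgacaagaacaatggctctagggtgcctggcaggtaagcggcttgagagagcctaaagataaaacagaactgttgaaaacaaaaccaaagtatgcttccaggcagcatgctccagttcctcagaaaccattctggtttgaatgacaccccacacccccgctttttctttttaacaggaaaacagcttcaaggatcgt

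Each window was searched on both strands for 5 motifs: the NF-kB consensus site, the interferon-stimulated response element (GAAA, any 2 bases, GAAA), the cyclic AMP response element TGACGTCA, the TATA box TATAAA and the STAT site TTCNNNGAA. The Fscn1 window held the cyclic AMP response element with its first base 45 bases before the start, and a TATA box 31 bases before it. Of 32851 windows of the same length, 1.55% held the former and 12.4% the latter. The Pdcd1lg2 window held an NF-kB match that starts 244 bases before the start, as did 7.25% of all windows. The interferon-stimulated response element was in 2.98% and the STAT site in 7.02% of them. None of the 5 strings of letters was found in the windows of Cd274, Cd80 and Ccl22, which says only that they are not in these windows. A match is a string of letters and was not tested as a binding site.

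The 24 libraries carried 19952047 to 31049798 counts. Arpc4, the targeted gene, was at 188 to 270.3 CPM (TMM-scaled counts, relative to library size) in WT and at 155 to 231 CPM in KO over the 4 days. On each day every WT library lay above every KO library. The log2 fold change of Arpc4 was -0.18 to -0.28 by day, a change of -11.6% to -17.9%, in the direction of the labels. It did not pass the edgeR test on any single day (adjusted p 0.18 to 0.69), and most Arpc4 mRNA was still present in KO. Summed over days per mouse number, as described below, it was called lower with the labelled numbers (-0.215, edgeR adjusted p 0.037) and not with the KO numbers exchanged (-0.209, 0.26). Markers of dendritic cells were present in every library, with a summed level of 4941 to 12650 CPM over 12 genes, and those of macrophages (3220 to 6210 CPM over 12 genes) and neutrophils (3251 to 7439 CPM over 12 genes) were there as well. The T cell list summed to 39.1 to 68.6 CPM, of which Cd28 made up 37.2 to 67.2 CPM, the B cell list to at most 7.26 CPM and the NK cell list to at most 0.702 CPM. Klra8, Gzma and Alas2, defining markers of NK and erythroid cells, were at 0 in every library. The Y-linked gene Ddx3y was high in WT mouse 63 on all 4 days, but among the KO libraries in number 64 for days 7 and 9, 68 for day 8 and 67 for day 10, so a KO number cannot stand for the same animal on every day. Sums per mouse number, the replicate block and results without a KO mouse join KO libraries by number. They were therefore run both with the numbers as labelled and in an exchanged order, in which 64 and 68 change places on day 8 and 64 and 67 on day 10. Comparisons within a day over all 6 libraries do not use the numbers.

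Per length, in TPM (a transcript's length-corrected share of the library), Cd274 was the most abundant of the 10 in 6 of the 8 groups, from 261 ± 10.6 TPM in KO on day 7 to 468 ± 95 TPM in WT on day 8 (mean ± SD, n = 3). Ccl22 came next, at 72.0 ± 8.35 TPM in WT on day 7 and 364.6 ± 101 TPM in WT on day 10, and had the higher mean of the pair in KO on days 9 and 10 (440.0 ± 213 and 594 ± 251 TPM), with ranges that overlapped those of Cd274. Ccr7 came after both in all 8 groups, at 51.4 to 157 TPM. Cd40 was last in all 8, at 0.85 to 4.74 TPM, and Pdcd1lg2 stood eighth or ninth except in WT on day 9. The genes between, Fscn1, Cd80, Cd83, Cd86 and Relb, changed places from day to day and many of their neighbours overlapped. The receptor for leaving the tissue was thus in every group more abundant as mRNA than the costimulatory molecules, while the inhibitory ligand PD-L1 exceeded Cd80, Cd86 and Cd40.

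**Figure D1:**
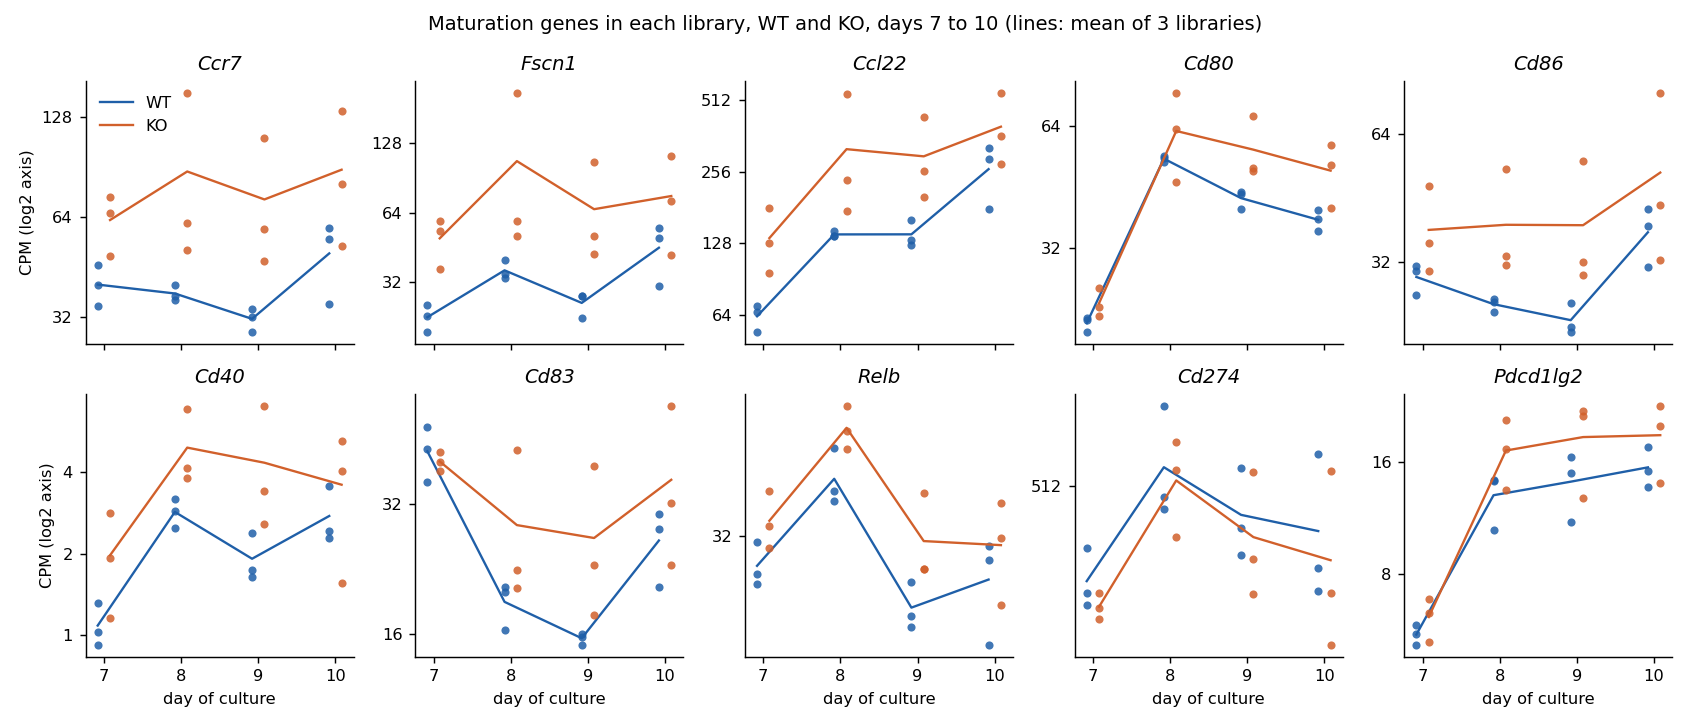
TMM-scaled CPM (log2 axis) of the 10 genes against day of culture; each point is 1 library of 1 mouse, WT in blue and KO in orange, and lines join the means of 3. In KO 1 point a day stands above the rest for Ccr7, Fscn1 and Ccl22 from day 8, with Ccr7 at 151 CPM on day 8.

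Ccr7 (ENSMUSG00000037944.8, chr11:99144196-99155077, reverse strand, GENCODE M21 on GRCm38) was higher in KO than in WT on each day. On day 7 the WT libraries held 39.8, 34.6 and 45.7 CPM and the KO libraries 48.7, 73.2 and 65.9 CPM, in the order of their mouse numbers. On day 8 these were 37.1, 36.0 and 40.0 CPM against 61.2, 151 and 50.9 CPM. The day 9 libraries had 33.9, 28.9 and 32.0 CPM against 47.3, 110.4 and 58.9 CPM. The groups did not overlap on days 7, 8 and 9, although the KO library nearest to WT was never more than 13.4 CPM above the highest WT library. On day 10 they overlapped, at 55.0, 34.9 and 59.2 CPM in WT against 133, 52.2 and 80.6 CPM in KO. The log2 fold changes were 0.64, 1.22, 1.19 and 0.84 on the 4 days in turn, with standard errors of 0.362 to 0.371 and edgeR adjusted p of 0.405, 0.579, 0.295 and 0.613.

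Fscn1 (ENSMUSG00000029581.14, chr5:142960343-142973185, forward strand) showed the largest KO-to-WT ratio of the 10 on days 7, 8 and 9. It stood at 22.6, 19.3 and 25.2 CPM in WT on day 7 against 36.4, 58.6 and 53.3 CPM in KO. On day 8 the WT libraries held 34.7, 33.1 and 39.8 CPM and the KO libraries 58.7, 212 and 50.6 CPM. The day 8 groups were apart, but library 67 alone held 3.89 times the mean of the other KO libraries. On day 9 the values were 27.8, 22.2 and 27.6 CPM against 42.0, 106 and 50.4 CPM, and on day 10 they overlapped, at 49.6, 30.6 and 54.6 CPM against 113, 41.7 and 71.9 CPM. Its log2 fold changes were 1.14, 1.58, 1.36 and 0.75, with adjusted p of 0.219, 0.492, 0.349 and 0.748.

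Ccl22 (ENSMUSG00000031779.3, chr8:94745590-94751699, forward strand) followed the same order. The WT libraries held 65.6, 54.3 and 69.5 CPM on day 7 and the KO libraries 95.9, 180.1 and 128 CPM. On day 8 they held 145, 137 and 137 CPM against 237, 544 and 176 CPM, and on day 9 161, 126 and 133 CPM against 199.9, 435 and 258 CPM. The groups were again apart on these 3 days and overlapped on day 10, at 289, 178 and 322 CPM against 550.1, 277 and 363 CPM. The log2 fold changes of 1.09, 1.19, 1.09 and 0.59 came with adjusted p of 0.130, 0.544, 0.321 and 0.748.

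Of the costimulatory molecules, Cd86 (chr16:36603869-36666081, reverse strand) and Cd40 (chr2:165055627-165072948, forward strand) were higher in KO on each day, as was Cd80 (chr16:38455561-38496335, forward strand), with log2 fold changes of 0.16, 0.23, 0.40 and 0.40 by day. Cd86 ran from 21.9 to 42.6 CPM over the 12 WT libraries and from 29.8 to 80.0 CPM over the 12 KO libraries. On day 9 it was at 25.6, 22.4 and 21.9 CPM in WT and at 29.8, 55.3 and 31.9 CPM in KO, apart by 4.25 CPM, with a log2 fold change of 0.75 (adjusted p 0.429). Cd40, at the lowest counts of the 10, was at 1.74, 2.37 and 1.64 CPM in WT on day 9 and at 2.57, 6.98 and 3.40 CPM in KO, a log2 fold change of 1.18 (adjusted p 0.373). Cd80 was the only member whose groups did not overlap on day 10, at 35.2, 39.8 and 37.8 CPM in WT and 57.6, 51.4 and 40.2 CPM in KO. Its log2 fold change there was 0.40 with an adjusted p of 0.468, and the nearest libraries differed by 0.40 CPM.

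Cd83 (chr13:43784775-43803132, forward strand), a surface marker of mature dendritic cells, had interleaved groups on day 7, at 35.9, 42.8 and 48.2 CPM in WT and 38.0, 40.0 and 42.2 CPM in KO (log2 fold change -0.08). On day 9 the groups were apart, at 15.1, 15.8 and 16.1 CPM in WT and 17.8, 39.2 and 23.1 CPM in KO (0.77, adjusted p 0.452). Relb (chr7:19606217-19629438, reverse strand) had small log2 fold changes of 0.28, 0.31, 0.41 and 0.21 by day, none past the threshold. The log2 fold changes of Pdcd1lg2 (chr19:29410919-29471161, forward strand) were 0.16, 0.40, 0.40 and 0.29, and its groups overlapped on all 4 days. Cd274 (chr19:29367455-29388095, forward strand) was the exception, with log2 fold changes of -0.12, -0.06, -0.11 and -0.14 and overlapping groups throughout. On day 8 it was at 493, 669 and 474 CPM in WT and at 540.3, 432 and 594 CPM in KO. PD-L1 and PD-L2 are ligands of the same receptor and their genes are neighbours, yet their estimates lay on opposite sides of 0 on every day, with intervals that overlapped. An antisense gene, A930007I19Rik, overlaps the span of Pdcd1lg2 with 0 shared exon bases and held 118% of its counts over all libraries, and AC119228.1 overlaps Cd274 with 0.119%; the strand setting of the counting is not given in the sources used here.

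Read day by day, then, the genes were higher in KO in 8, 9, 9 and 9 of 10 cases, and none passed the adjusted threshold on any day. Over all 14535 genes tested, edgeR with Benjamini-Hochberg adjustment called 1.45% for day 7, 0.00688% each for days 8 and 9, and 0.0138% for day 10, in either direction, so few genes of any kind passed on the last 3 days. At an unadjusted p under 0.05 stood 2, 4, 8 and 2 members, against 15.7%, 5.91%, 8.15% and 7.30% of all genes, and DESeq2 called 0 members on each day as well. KO lay above WT without overlap for 4, 5, 8 and 1 members, against 11.9%, 4.4%, 7.62% and 5.47% of all genes. The median log2 fold change of the 10 was 0.32, 0.61, 0.76 and 0.43, where that of all genes lay between -0.01 and 0.00. With no filter on low counts, Ccl22 passed on day 7 (adjusted p 0.0201) and Ccr7, Fscn1 and Ccl22 passed on days 8 and 9 (0.0278 to 0.0484), where 1.19%, 0.0872% and 0.314% of all genes were called on the 3 days. Fitted on the day 7 libraries alone, Fscn1 (adjusted p 0.0277) and Ccl22 (0.0401) passed, with 2.36% of all genes. By day KO exceeded WT for 9, 10, 11 and 9 of 12 dendritic cell markers and 9, 5, 8 and 7 of 11 tested macrophage markers. It did so for 9, 9, 7 and 1 of 12 neutrophil markers and 6, 6, 7 and 3 of 7 tested mast cell and basophil markers. Of all genes 47.1% to 50.8% were higher in KO. In these lists 1 gene was called, a macrophage marker on day 7. The part of these lists in the members' values was not tested. In a bulk sample, fewer cells with much of an mRNA and less of it per cell cannot be told apart.

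**Figure D2:**
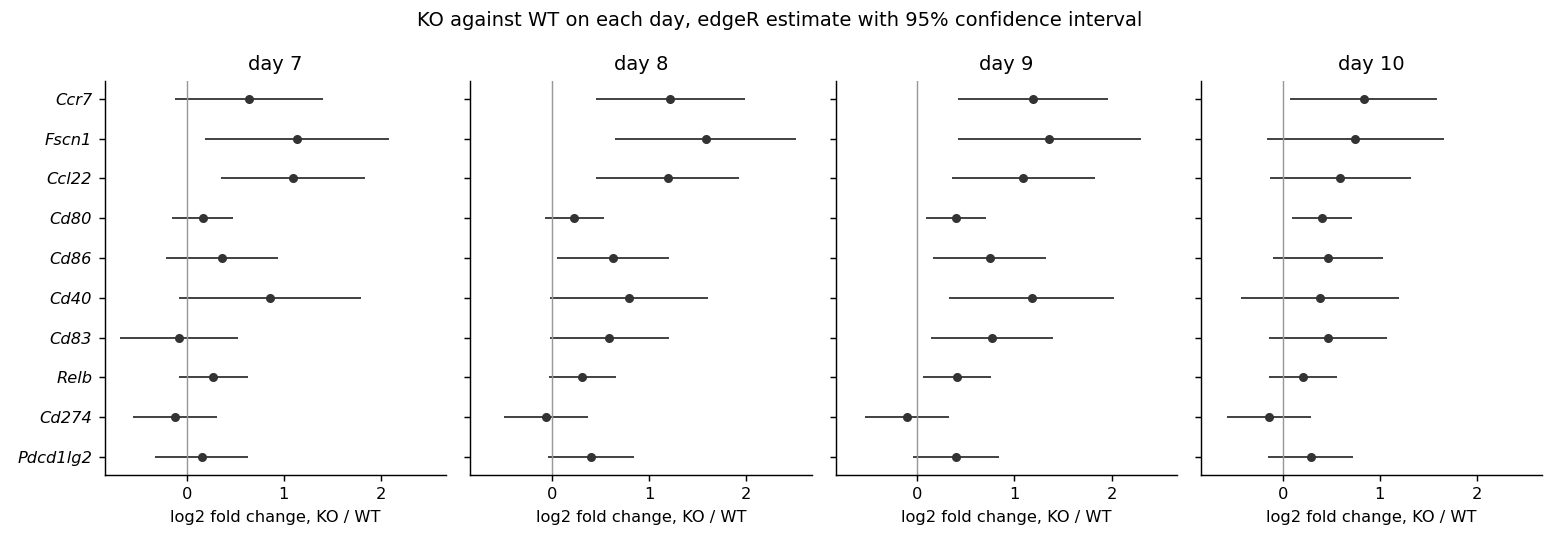
Log2 fold change of KO over WT on each day for the 10 genes, as edgeR estimates (points) with 95% confidence intervals (bars). Fscn1 lies furthest to the right on days 7, 8 and 9, Cd274 lies left of 0 on all 4 days, and no gene passed the adjusted threshold.

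On each day 1 KO library was the highest of its group for nearly the whole list. This was the library labelled 67 for day 7 (8 of 10 members), day 8 (9 of 10) and day 9 (9 of 10), and for day 10 the one labelled 64 (9 of 10). In the exchanged order the day 10 library is 67 too. On day 8 it held 2.69 times the mean of the other KO libraries for Ccr7, 2.63 times for Ccl22, 1.98 times for Cd83 and 1.64 times for Cd86. On day 10 the ratios were 2.01 for Ccr7, 1.99 for Fscn1, 2.11 for Cd86 and 1.72 for Ccl22. The exceptions were Cd83 and Cd274 on day 7 and Cd274 alone on days 8, 9 and 10. Cd274 was lowest there on all 4 days, at 0.941 times the mean of the others on day 7, 0.761 times the mean of the others on days 8 and 9 and 0.671 times on day 10. In WT no library was highest for more than 7 of the 10 on any day, and the numbers differed (66, 66, 63 and 66).

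Pooled over days, the SD of log2 CPM within groups was larger in KO for each of the 10. The KO-to-WT ratio of these SDs was 2.69 for Ccr7, 2.90 for Fscn1, 3.36 for Cd86 and 3.96 for Cd80, and as low as 1.13 for Cd274 and 1.12 for Relb. It exceeded 2 for 7 of the 10 members and for 19.8% of 11100 genes. The median ratio of these genes was 1.32, above the ratios of Cd274 and Relb, and 73% of them were above 1. As these values rest on 3 mice per genotype, they describe the mice and were given no test.

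**Figure D3:**
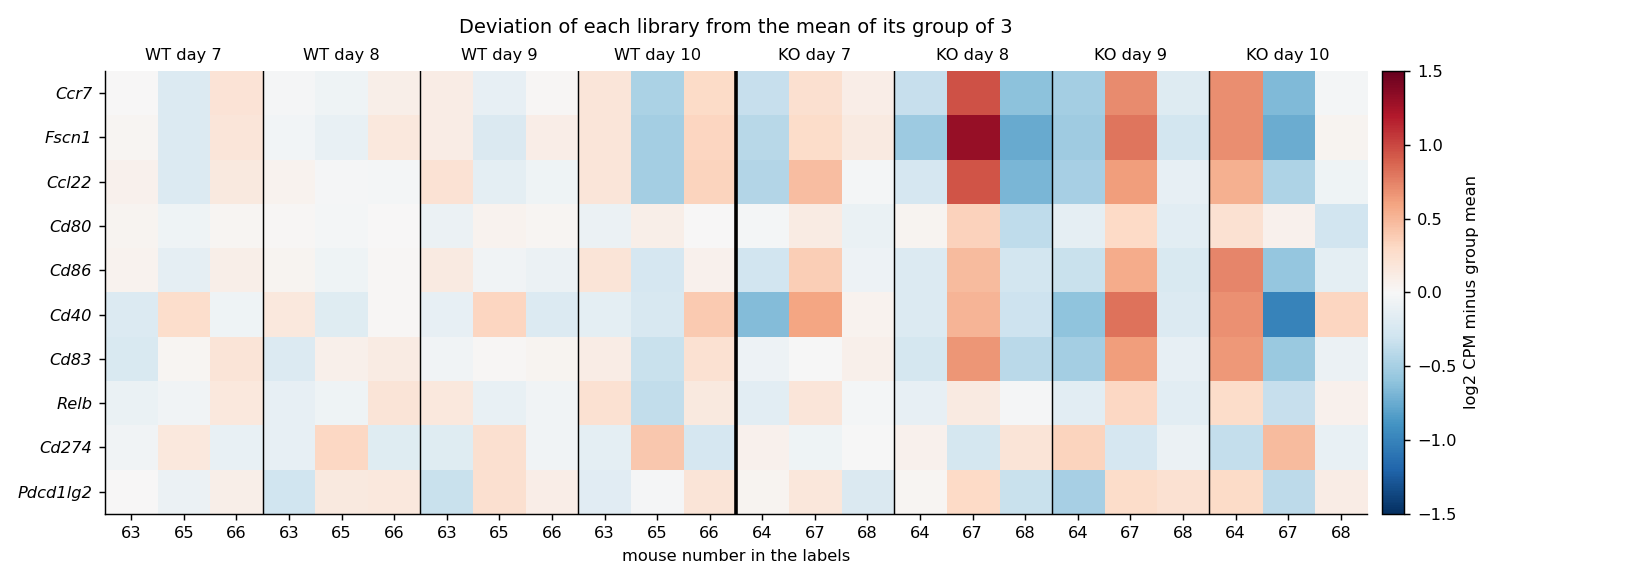
Deviation of each library from the mean of its group of 3, in log2 CPM, for the 10 genes (rows) and 24 libraries (columns, by mouse number as labelled); red is above the group mean and blue below. The KO columns of 67 on days 8 and 9 and 64 on day 10 are red for all genes but Cd274, which is blue there.

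Other measures moved with this library. On day 8 its dendritic cell marker list summed to 9087 CPM against 7043 and 7860 CPM in the other KO libraries, and its macrophage list to 4003 CPM against 5072 and 6043 CPM. On day 9 the lists stood at 11110 against 7890 and 9090 CPM and at 3575 against 4833 and 4094 CPM, and on day 10 at 12650 against 9777 and 11000 CPM and at 3220 against 4639 and 3664 CPM. On day 7 its macrophage list was also the lowest (4908 against 6107 and 6210 CPM), while its dendritic cell list lay between the others (6078 against 5593 and 6158 CPM). Its neutrophil list was the highest of KO on day 7 (7439 against 3916 and 5015 CPM) and day 8 (4715 against 3747 and 4087 CPM), the lowest on day 9 (4889 against 5177 and 5498 CPM) and between the others on day 10 (5174 against 4770 and 6194 CPM). Its mast cell and basophil list was the highest of KO on all 4 days, at 243, 206, 183 and 89.3 CPM. On day 9 that list was higher in all KO libraries (148 to 183 CPM) than in WT (99.3 to 123 CPM). The T cell list in it stood between the other KO libraries on days 7 and 9 (50.7 and 51.0 CPM), below them on day 8 (48.9 against 49.1 and 54.7 CPM) and above them on day 10 (66.3 against 48.3 and 60.4 CPM). That sum is mostly Cd28. Of the 8 genes, Cd3g and Icos, named after their values were seen, were highest of KO in this library on all 4 days, and no other was. Cd3g was at 0.729 against 0.0798 and 0.129 CPM on day 7, 1.44 against 0.147 and 0.0423 CPM on day 8, 3.70 against 0.445 and 0.467 CPM on day 9 and 9.10 against 1.62 and 3.60 CPM on day 10. Icos, the T cell costimulatory receptor, was at 1.61 against 0.294 and 0.169 CPM on day 8 and at 0.214 against 0.200 and 0.171 CPM on day 7. The part of these marker levels in the result was not tested. The NK and erythroid lists summed to at most 0.702 and 1.29 CPM in any library.

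Leaving out the libraries labelled 67 reduced the log2 fold change of Ccr7 from 1.22 to 0.59 on day 8 and from 1.19 to 0.75 on day 9, and that of Fscn1 from 1.58 to 0.62 and from 1.36 to 0.84. Ccl22 went from 1.19 to 0.58 on day 8 and from 1.09 to 0.72 on day 9. All 3 stayed above 0. On day 10 the library labelled 67 was the lowest of KO for Ccr7 and Fscn1, and leaving out number 67 gave 1.11 for Ccr7 (adjusted p 0.0178) and 1.04 for Fscn1 (adjusted p 0.0337), both past the threshold, as were 0.559% of all genes. On day 7 it gave 1.02 for Fscn1 (adjusted p 0.0436), where 0.675% of all genes were called. In the exchanged order, number 67 left out, none of these passed: Ccr7 was at 0.43 on day 10 (adjusted p 0.610) and Fscn1 at 0.35 (0.733), and at 1.00 on day 7 (0.066). With number 64 left out in that order, which removes the Ddx3y-high library of each day, Ccr7, Fscn1 and Ccl22 passed on day 8, with log2 fold changes from 1.49 (Ccl22) to 1.93 (Fscn1) and adjusted p of 0.0176 to 0.0205, Ccl22 on day 7 (1.29, 0.0178), and Ccr7 and Cd40 on day 9 (1.43 and 1.45, 0.0426 and 0.0413); 5.67%, 1.93% and 0.585% of all genes were called there on days 7, 8 and 9. Without the libraries labelled 64 as labelled, the day 10 values were smaller, at 0.43 for Ccr7, 0.35 for Fscn1 and 0.30 for Ccl22. The estimate of Cd274 changed sign without 67 (0.07 on day 8 and 0.02 on day 9) and also without WT mouse 65 (0.12, 0.03 and 0.10 on days 8, 9 and 10). On day 10 it changed sign without the library labelled 64 as well (0.05). In the exchanged order it did so without 67 on days 8, 9 and 10 (0.06, 0.01 and 0.04).

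Summing the counts of the 4 days per mouse number gives 6 values over which the genotype was tested. By Ddx3y, a KO sum under a labelled number joins libraries of more than 1 animal. With the numbers as labelled, Ccr7 was at 42.3, 34.0 and 45.0 CPM in WT and 76.0, 98.8 and 65.4 CPM in KO, a log2 fold change of 0.99 ± 0.149 (SE). Fscn1 was at 34.6, 27.0 and 37.8 CPM against 65.4, 108 and 57.7 CPM (1.21 ± 0.219), and Ccl22 at 169, 128 and 173 CPM against 288, 374 and 246 CPM (0.95 ± 0.157). With these numbers KO lay above WT without overlap for 9 of the 10 members, against 13.3% of all genes, and not for Cd274. By edgeR 5 members were called higher and none lower: Ccr7 (adjusted p 0.0217), Ccl22 (0.0247), Fscn1 (0.0289), Cd40 (0.79, adjusted p 0.0308) and Cd86 (0.55, adjusted p 0.0312). Over 16313 genes tested, 3.86% were called in either direction and 2.40% higher. In the same sums 11 of 12 dendritic cell markers were higher in KO, with a median of 0.28 and 2 called, and 5 of 6 tested T cell markers, with a median of 0.58 and 2 called. Of the mast cell and basophil list 7 of 8 were higher (median 0.41, 0 called), and of 11 macrophage markers 8 were higher and 1 was called. Stromal markers lay the other way, with 1 of 6 higher, a median of -0.94 and 1 called lower. By day their median was -0.87, -1.04, -0.81 and -0.67, none called, and their summed level was 5.85 to 40.3 CPM in the WT libraries, a range that held that of KO (6.36 to 12.3 CPM). With the KO numbers exchanged the counts of higher genes were again 11, 5, 7, 8 and 1 in these 5 lists, with 0 called by edgeR (0, 1, 2, 2 and 1 at an unadjusted p under 0.05). The share of all genes at that unadjusted level was not computed for the exchanged order. The part of these lists in the members' values was not tested.

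These calls rest on the numbers as labelled. With the KO numbers exchanged, the KO values became 50.2, 119.9 and 67.4 CPM for Ccr7 and 42.8, 125 and 59.4 CPM for Fscn1, the estimates hardly moved (0.97 for Ccr7 and 1.20 for Fscn1), but the standard errors rose to 0.307 and 0.383 and 0 of the 10 were called (edgeR adjusted p 0.332 to 0.457 for the 5 genes above; 6 of 10 at an unadjusted p under 0.05). The same order called 0.00613% of 16305 genes. In it the KO and WT sums overlapped for Cd86, Cd40, Cd83, Pdcd1lg2 and Relb, as well as for Cd274. They stayed apart for Ccr7, Fscn1, Ccl22 and Cd80. The share of all genes that stayed apart was not computed for this order. Ddx3y places only 1 of the 3 KO animals, so 7 other orders fit it, in which 67 and 68 also change places on day 8, 9 or 10 or on several of these. These 7 orders, and the exchanged order with any 1 of the 6 mice left out, also called 0 members by edgeR, with up to 9 members at an unadjusted p under 0.05. The share of all genes at that unadjusted level was not computed for the exchanged and other orders, so these member counts have no background. With the labelled numbers 9 members and 21.9% of all genes stood there. The 7 orders called 0.00612% to 0.153% of all genes. Ccr7 was at 0.97 to 0.98 in them and at 0.55 in the exchanged order without mouse 67. With the labelled numbers, leaving out mouse 64 or 65 left 0 members called, 66 or 67 left 2 each, 63 left 3 and 68 gave 7, with log2 fold changes of Ccr7 between 0.81 and 1.12. Of all genes 0.0663% were called without 64, 0.442% without 65, 0.934% without 66, 0.387% without 67, 1.77% without 63 and 6.85% without 68. The DESeq2 Wald test called 9 members and 9.4% of all genes.

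**Figure D4:**
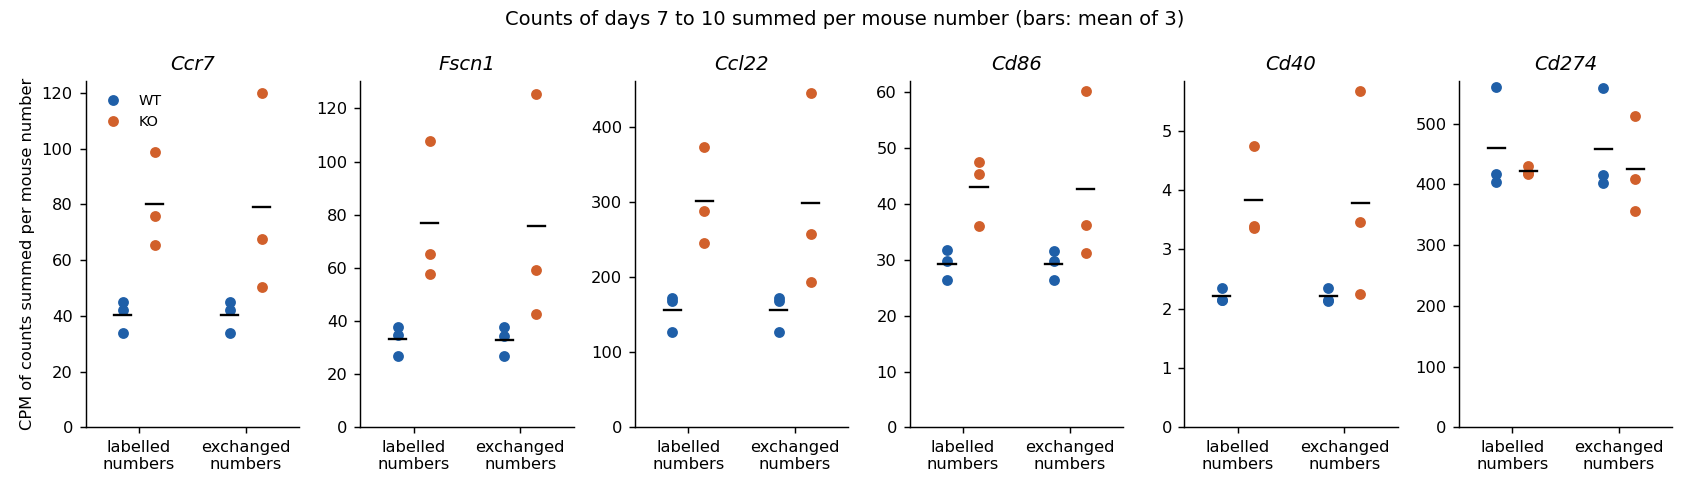
Counts of days 7 to 10 summed per mouse number, as TMM-scaled CPM on linear axes from 0, for 6 of the genes; each point is 1 mouse number (WT blue, KO orange) and black bars are means of 3, with the KO numbers as labelled (left) and exchanged (right). The means stay in place while the KO points spread, for Ccr7 from 65.4 to 98.8 CPM as labelled and from 50.2 to 119.9 CPM exchanged.

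More members passed the threshold between days than between genotypes. From day 7 to day 8, the day after the second replating, 6 members rose in WT (Cd80, Cd40, Cd274, Pdcd1lg2, Relb and Ccl22) and Cd83 fell. In KO the same 6 and Fscn1 rose and none fell. Over all genes 43.4% were called in WT (21.5% higher, 22% lower) and 42% in KO (21.1% higher, 20.9% lower) in this step. With it 3 of 12 dendritic cell markers were called higher and none lower in each genotype (medians 0.32 in WT and 0.30 in KO), and 4 of 12 neutrophil markers in WT and 6 in KO were called lower and none higher (medians -0.25 and -0.66). Their part in the members' changes was not tested. Cd80 went from 21.5, 19.9 and 21.3 CPM to 54.1, 52.2 and 53.5 CPM in WT, and from 22.9, 25.5 and 21.8 CPM to 63.0, 77.4 and 46.7 CPM in KO. Its log2 fold changes were 1.35 ± 0.152 (SE) and 1.41 ± 0.151, with adjusted p of 6.7e-07 and 3.7e-07. Pdcd1lg2 went from 5.50, 5.15 and 5.82 CPM to 10.5, 14.2 and 14.3 CPM in WT and rose by a log2 fold change of 1.24 (adjusted p 0.000153), against 1.49 in KO (2.08e-05). Cd83 went from 35.9, 42.8 and 48.2 CPM to 16.4, 20.0 and 20.6 CPM in WT, a log2 fold change of -1.15 (adjusted p 0.00361). In KO it went from 38.0, 40.0 and 42.2 CPM to 22.6, 42.7 and 20.5 CPM, with -0.48 (0.194). Only the library labelled 67 was not lower, and without it the KO value was -0.88 (adjusted p 0.00321; exchanged, 0.00168); the difference between the genotypes in this step was not tested.

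The remaining day 8 rises were 1.39 in WT and 1.32 in KO for Cd40, 1.14 and 1.24 for Ccl22, 0.55 and 0.61 for Cd274 and 0.53 and 0.57 for Relb. The adjusted p ran from 0.00772 to 0.0382. Fscn1 rose by 1.12 in KO (adjusted p 0.0465), a call that held in 7 of 14 alternatives and ended without library 67 (0.30, adjusted p 0.364; exchanged, 0.31 and 0.381). It also missed the threshold by the DESeq2 Wald test (adjusted p 0.0528) and limma-trend on TPM (0.0796). In WT its log2 fold change of 0.68 did not pass (0.240). Several of these calls rested on all 3 mice. In WT, leaving out mouse 63 or 66 ended those of Cd40, Cd274, Relb and Ccl22 (adjusted p 0.0551 to 0.137) and leaving out 65 ended those of Cd274 and Ccl22 (0.119 and 0.0865). In KO, leaving out 64 ended that of Cd274 (0.0552) and leaving out 68 those of Cd274 and Relb (0.167 and 0.0554). In the exchanged order leaving out 64 ended none, and leaving out 68 ended those of Cd40, Fscn1 and Cd274 (0.0589, 0.0566 and 0.144). Fitted on the KO libraries of these days alone, Ccl22 and Fscn1 did not pass (0.0509 and 0.131). The estimates kept their sign in each case. With the mouse as a replicate block, Cd40 in WT (adjusted p 0.0512) and Fscn1 in KO (0.133) no longer passed. With the KO numbers exchanged in the block Fscn1 passed and Cd83 fell in KO (-0.55, adjusted p 0.0468). Ccr7 and Cd86 did not pass in either genotype, with log2 fold changes of -0.09 and -0.21 in WT and 0.49 and 0.04 in KO.

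After day 8 few members passed. From day 8 to day 9 Relb fell in both genotypes, from 37.2, 38.8 and 46.7 CPM to 26.3, 21.8 and 22.8 CPM in WT (log2 fold change -0.79, adjusted p 0.0122) and from 46.4, 55.7 and 50.2 CPM to 27.8, 38.5 and 27.8 CPM in KO (-0.69, adjusted p 0.0363). The groups of the 2 days were apart in both. Over all genes 2.34% were called lower in WT and 1.02% in KO. The WT call ended without any 1 of the mice 63, 65 and 66 (adjusted p 0.0709, 0.129 and 0.214), and the KO call without 64 or 68 (0.0723 and 0.234) or, exchanged, without 68 (0.429), with estimates from -0.62 to -0.94. From day 9 to day 10 edgeR called none of the 10 in either genotype, where 3.60% of all genes were called in WT and 0.0963% in KO. At an unadjusted p under 0.05 stood 3 members in WT and 0 in KO, against 17.7% and 12% of all genes. Fitted on the WT libraries of those 2 days alone, Ccr7, Cd86, Cd83, Fscn1 and Ccl22 passed (adjusted p 0.0106 to 0.0427), with 6.26% of all genes. In KO the same 5 genes passed without number 67 as labelled (0.00349 to 0.0125), with 14.2% of all genes. This takes out the highest day 9 and the lowest day 10 library for Ccr7. By Ddx3y these are not 1 animal, and in the exchanged order no member passed without 67, 64 or 68.

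Over the whole course, day 10 against day 7, Ccl22 and Pdcd1lg2 rose furthest of the members that passed in both genotypes. Ccl22 went from 65.6, 54.3 and 69.5 CPM to 289, 178 and 322 CPM in WT (log2 fold change 2.06, adjusted p 0.000183) and from 95.9, 180.1 and 128 CPM to 550.1, 277 and 363 CPM in KO (1.56, adjusted p 0.00189). Pdcd1lg2 rose by 1.49 in WT and 1.62 in KO and Cd80 by 0.85 and 1.09. Cd40 rose in WT (1.34, adjusted p 0.0206) and in KO had 0.87 (0.0992). Over all genes 37% were called in WT, 18.9% higher and the rest lower. In KO 36.8% were called, 19.7% higher and the rest lower. Cd40 no longer passed in WT with the replicate block (adjusted p 0.0707) or without mouse 63, 65 or 66 (0.111, 0.0514 and 0.202), and without 64 Ccl22 did not pass in KO (1.05, adjusted p 0.0552). Ccr7, Cd86, Cd40 and Fscn1 also passed in KO without 67 as labelled (0.89 to 1.57), with 39.6% of all genes called, a number that by Ddx3y is not 1 animal on these days. In the exchanged order none of the 4 passed without 67, where Ccr7 was at 0.23 (adjusted p 0.479), while Cd83 fell (-0.52, adjusted p 0.0467); without 64 Cd40 passed (0.95, 0.0348). Over the same days 9 of 12 dendritic cell markers were called higher in each genotype (medians 1.47 in WT and 1.22 in KO), and 6 macrophage markers in WT and 7 in KO, of 11 tested, were called lower and 1 in each, Mrc1, higher. Of 12 neutrophil markers 5 were called higher and 2 lower in WT (median 0.66), and 0 higher and 3 lower in KO (median 0.00). Of 5 tested T cell markers 2 were called higher in each genotype and 1 lower in WT. In the interaction described next edgeR called 0 of the 12 neutrophil markers, with a median of -0.73. Their part in the members' rises was not tested. The interaction of genotype and day, tested for day 10 against day 7, was called for 0 of the 10 by edgeR and 0 by DESeq2. By edgeR it was called for 0.0619% of all genes. At an unadjusted p under 0.05 stood 0 members, against 6.31% of all genes. The interaction estimate was 0.19 for Ccr7 and -0.50 for Ccl22, each with a standard error of about 0.5 (0.513 and 0.495).

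**Figure D5:**
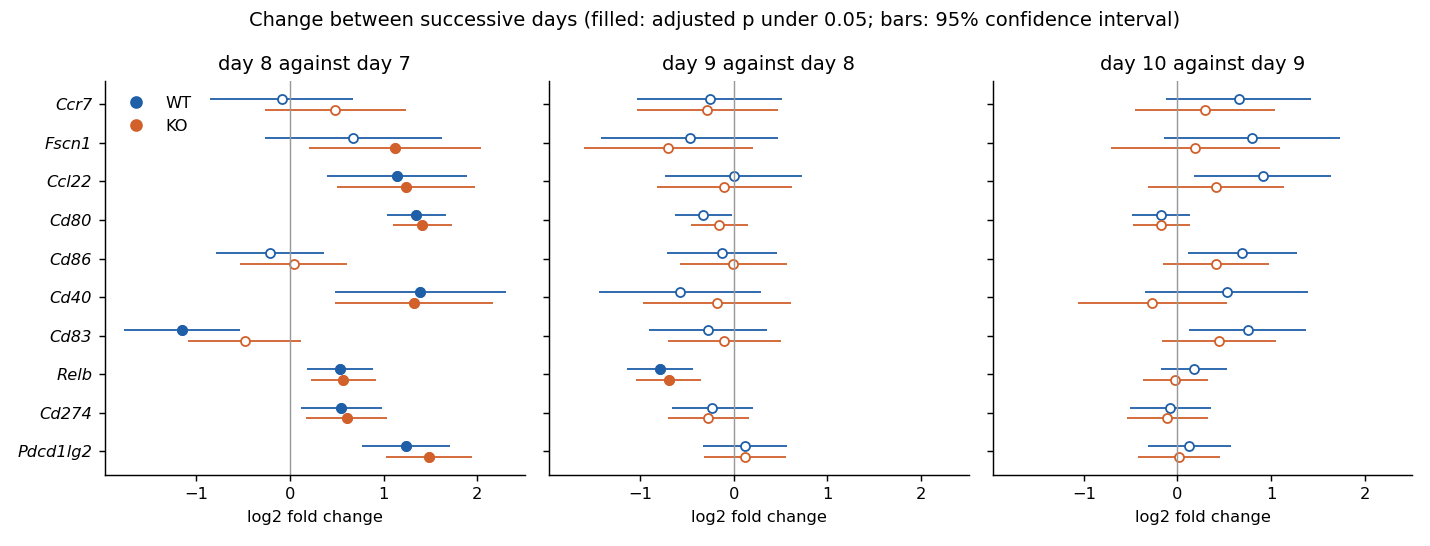
Log2 fold change between successive days for the 10 genes, WT in blue and KO in orange; filled points passed an adjusted p under 0.05 and bars are 95% confidence intervals. The first step holds 14 of the 16 filled points, and Relb in both genotypes the other 2, left of 0 in the middle panel.

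Library by library, the members fell into those that kept step with Ccr7 and those that did not. Over the deviations of the 24 libraries from their group means, Pearson's r with Ccr7 was 0.99 for Fscn1, 0.97 for Ccl22, 0.94 for Cd83 and 0.93 for Cd86. It was 0.80 for Cd40 and Relb, 0.64 for Cd80, 0.62 for Pdcd1lg2 and -0.82 for Cd274. Over the 12 WT libraries alone it was 0.98 for Fscn1, 0.95 for Ccl22, 0.88 for Relb, 0.87 for Cd86, 0.72 for Cd83 and -0.87 for Cd274, so that the close following of Fscn1 and Ccl22 and the opposite course of Cd274 did not need the KO libraries. For Cd40, Pdcd1lg2 and Cd80 it was 0.17, 0.04 and -0.37 in WT, against 0.89, 0.78 and 0.74 in KO. In WT mouse 65 was highest for Cd274 on all 4 days (416, 669, 544 and 571 CPM) and lowest for Ccr7 on each of them. These correlations are descriptions; the libraries share mice, groups and scaling, and 3 libraries a group leave few free deviations.

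Among 11110 genes with an average log2 CPM above 1, ranked by correlation with Ccr7 over the 24 libraries, Fscn1 stood at rank 3 (r = 0.95), Cd86 at 9 (0.93), Ccl22 at 84, Cd40 at 169, Cd83 at 249 and Relb at 561. Pdcd1lg2 and Cd80 stood at 1578 and 1969, and Cd274 near the other end at 10137 (r = -0.49). The genes outside the list most like Ccr7 were Npr1, a natriuretic peptide receptor (r = 0.97), Slc4a8, a sodium-dependent bicarbonate transporter (0.96), Sema7a, a membrane-anchored semaphorin (0.95), Adam11 (0.94) and Mmp25, a membrane-anchored metalloproteinase (0.94). Npr1 ran from 2.70 to 17.9 CPM and Mmp25 from 13.0 to 61.7 CPM, and 4 of these 5 were highest in the KO library labelled 67 on day 8, Adam11 in 64 on day 10.

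Around the members, 4 further lists were read. Of 30 genes of the mature and migratory dendritic cell programme, 29 were tested, and KO exceeded WT for 24, 27, 27 and 24 of them by day, with medians of 0.40, 0.64, 0.54 and 0.39. Marcksl1, an actin-associated substrate of protein kinase C, rose on day 7 (0.86, edgeR adjusted p 0.0332), from a WT range of 46.6 to 56.5 CPM to a KO range of 70.5 to 118 CPM, and Eno2, a glycolytic enzyme, fell (-0.74, 0.0408). Over all genes 0.832% were called higher and 0.619% lower on that day. None of the list was called on days 8, 9 and 10. Summed by the labelled mouse numbers, 11 were called higher, against 2.4% of all genes, and Eno2 lower. With the numbers exchanged edgeR called 0 of the 29, and 16 stood at an unadjusted p under 0.05. The share of all genes at that level was not computed for the exchanged order, and was 21.9% with the labelled numbers. Of 15 tested costimulatory and coinhibitory ligands outside the members, Tnfsf14 (LIGHT, a ligand of HVEM) was higher in KO on day 7, at 6.67 to 9.56 CPM against 3.69 to 4.35 CPM (1.08, adjusted p 0.0091), and Cd48, a ligand of CD244, by 0.24 (0.0419), with no other call by day. Of 24 genes of NF-kB and CD40 signalling and 9 tested genes of actin bundling and podosomes other than Fscn1, none was called between genotypes on any day, with medians from 0.05 to 0.18 and from -0.02 to 0.10; all genes had medians from -0.01 to 0.00. Summed by the labelled mouse numbers, 5 of the 24 NF-kB genes were called higher and none lower, against 2.4% of all genes called higher. Those with the largest values were Traf1, an adaptor of TNF receptors (0.73), Map3k14, the kinase NIK of the alternative pathway (0.48), and Nfkb2 (0.28). Of the ligands, now 16 tested, Tnfsf14 was called higher (0.43) and Cd200 lower (-0.83), and of 10 actin genes edgeR called none, the lowest adjusted p being 0.107 for Sh3pxd2a. With the numbers exchanged edgeR called 0 in each of these 3 lists, with 6, 6 and 1 at an unadjusted p under 0.05. Here too the share of all genes at that level was not computed.

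By day, part of the NF-kB list was called in the directions of Relb. From day 7 to day 8, 11 of its 24 genes rose and 3 fell in each genotype, and from day 8 to day 9 none rose and 8 fell in each, where 2.34% of all genes fell in WT and 1.02% in KO. Nfkbie, an inhibitor of NF-kB, went from 19.3 to 22.8 CPM on day 7 to 56.9 to 68.1 CPM on day 8 and back to 31.4 to 35.8 CPM on day 9 in WT (log2 fold changes 1.53 and -0.83). Nfkb2, the partner of RelB, rose by 0.98 in WT and 0.90 in KO and then fell by 0.68 and 0.57. Of the 29 tested genes of the mature programme, 7 rose and 3 fell from day 7 to day 8 in WT, and 11 rose and 3 fell in KO. Ccl17, which shares the receptor CCR4 with CCL22, rose from 1.46 to 1.65 CPM to 56.1 to 73.3 CPM in WT by day 8 (5.37) and from 2.91 to 7.76 CPM to 37.2 to 135 CPM in KO (4.23), more than any member. Of 15 tested ligands 7 rose and 4 fell in WT, and 8 rose and 6 fell in KO. Among them Tnfsf14 rose by 3.27 in WT and 2.43 in KO and Cd200, an inhibitory surface protein, fell by 1.59 and 1.24. Of 9 actin genes 4 rose and 2 fell in each genotype. Over all genes 21.5% rose and 22% fell in WT in the first of these steps, and 21.1% and 20.9% in KO.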

How the data were processed

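Polyadenylated RNA of 24 libraries (6 mice on 4 days) was sequenced as stranded pairs, with 2 kinds of kit named and no assignment per library, so no batch could be set. Per the submitters' processing notes, FastQC 0.11.9, STAR 2.6.1, DESeq2 1.22.2 and build mm10 were used; the counter, its strand setting and the gene lengths are not given in the sources used here. The authors deposited whole-number counts and TPM for 55487 genes; 55094 identifiers matched GENCODE M21 (GRCm38).

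Counts were fitted with edgeR 4.0.16 (R 4.3.3): filterByExpr, TMM, 8 group means over 24 libraries, quasi-likelihood test, 16 residual degrees of freedom, Benjamini-Hochberg adjustment over the 14535 genes tested, threshold 0.05. CPM are TMM-scaled; correlations were taken on log2 values of these CPM (prior count 2). Libraries of a mouse were treated as separate samples in this fit; the sums per mouse number and a replicate block (limma 3.58.1) are the alternatives to that. Other alternatives were DESeq2 1.42.0 size factors and Wald test, no filter, a mean of at least 50 counts, only the libraries compared, limma-trend on log2(TPM + 1) and each mouse left out. Script steps were tested on simulated counts.

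Same-numbered libraries are 1 mouse per the labels. Their deviations from group means correlated at 0.492 in WT, -0.005 in KO as labelled and 0.584 in KO exchanged (mean r over 11111 genes). The other KO orders, and the exchanged order with a mouse left out, were added after seeing the data. The members and the lists were chosen with earlier results of these data known. Named beyond the members are, per list, direction and comparison, up to 3 called genes with the largest log2 fold change and an average log2 CPM above 1, and the 5 genes most like Ccr7. Reads without molecular identifiers are not independent molecules.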

Additional observations from a re-analysis of the deposited data

How the results depend on the processing

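The number of members called was recomputed under each alternative for 14 comparisons. Shares of all genes called stand in parentheses. With no filter on low counts it was 1 on day 7 (1.19%), 3 on day 8 (0.0872%) and 3 on day 9 (0.314%) for KO against WT, 9 for the sums per mouse number (5.2%) and 6 for WT day 10 against day 7 (16.4%). Fitting only the libraries compared gave 2 for KO against WT on day 7 (2.36%), 9 for WT (56.2%) and 5 for KO (34%) day 8 against day 7, 3 for WT day 9 against day 8 (16.6%), 5 for WT day 10 against day 9 (6.26%), 7 for WT day 10 against day 7 (41.2%) and 0 for KO day 9 against day 8 (0%). Limma-trend on log2(TPM + 1) gave 0 for day 9 against day 8 in WT (3.58%) and KO (1.59%), 6 for KO day 8 against day 7 (46%), and 6 for WT (47.3%) and 4 for KO (51.6%) day 10 against day 7. The DESeq2 Wald test gave 9 for the sums (9.4%), 6 for KO day 8 against day 7 (42.4%) and 5 for WT day 10 against day 7 (37.7%). With KO numbers exchanged, in all 8 orders that fit Ddx3y, the sums gave 0 (0.00612% to 0.153%).

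With 1 mouse number left out at a time, KO against WT gave 0 to 1 on day 7 (0.0743% to 2.4%), 0 on days 8 (0.00676% to 0.204%) and 9 (0.00676% to 0.0205%) and 0 to 2 on day 10 (0.00676% to 0.559%), and the sums 0 to 7 (0.0663% to 6.85%). WT gave 3 to 5 for day 8 against day 7 (29.8% to 31%, against 43.4% over all mice), 0 for day 9 against day 8 (0.115% to 0.285%, against 5.4%), 0 for day 10 against day 9 (0% to 1.23%) and 3 for day 10 against day 7 (22% to 24.1%, against 37%). In these WT comparisons the shares of all genes were lower as well. KO gave 5 to 7 (31.9% to 35.1%), 0 to 1 (0.136% to 3.73%), 0 to 5 (0% to 14.2%) and 2 to 7 (21.9% to 39.6%) in the same order. With the KO numbers exchanged first, it was 0 to 1 (0.32% to 5.67%), 0 to 3 (0.00682% to 1.93%), 0 to 2 (0.0205% to 0.585%) and 0 (0.0136% to 0.0273%) for KO against WT on days 7 to 10, 0 for the sums (0.00595% to 0.168%), and 4 to 7 (27.9% to 41.7%), 0 to 1 (0.0341% to 7.51%), 0 (0% to 0.783%) and 3 to 4 (21.7% to 35.9%) for KO by day. The replicate block (consensus correlation 0.0046 as labelled, 0.23 exchanged) gave 6 members called for day 8 against day 7 in WT (42.2%) and KO (40.9%) as labelled and 8 in KO exchanged (47.8%), and changed no other call than those of Cd40, Fscn1 and Cd83 given above. Of 2050 recomputed effects of single members, 1789 kept their direction and side of the threshold, 126 lost and 60 gained a call, and 75, none of them called by edgeR, changed sign; no called effect changed direction. The causes were not tested.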
